A study of Caenorhabditis elegans with 4 samples.

Results

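The LAG-1 ChIP-seq peaks of the Caenorhabditis elegans X chromosome were taken as every interval assigned to X in the 3 deposited peak lists. These lists held 186, 166 and 122 peaks on X in replicates 1, 2 and 3, out of 1221, 1148 and 799 on the nuclear chromosomes. Joining intervals that overlapped by at least 1 bp gave 266 X regions, of 1776 in the whole series. The study has 3 LAG-1 ChIP samples, which the submitters call independent replicates of the experiment, and 1 sample of input DNA that served as the control of every list. All samples came from animals of the Bristol strain, synchronised by bleaching, fed NA22 bacteria and taken as L4 larvae. The labels name the germline as the source, whereas their protocol speaks of lysates of animals, so binding in germ cells and in somatic cells cannot be told apart. The file headers call the ChIP libraries Biotag-boss, a name the labels leave unexplained, and only the labels tie them to LAG-1. The lists hold positions and enrichment only, so the labelled cell type could not be checked against marker genes.

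LAG-1 is the worm's CSL protein, the DNA-binding factor that meets the cleaved intracellular part of a Notch receptor in the nucleus and turns its target genes on. Worms have a pair of such receptors, LIN-12, which acts in somatic cell fate decisions, and GLP-1, which also keeps germline stem cells dividing. X is the sex chromosome. In germ cells it carries repressive chromatin and few of the genes that early germ cells use, while in somatic cells it is transcribed under dosage compensation. Positions below are on the ce10 build, counted from 1. The genes at these regions and the DNA under them were not analysed here, since no genome or annotation of that build was used.

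Each value comes with the limits of its library. After removal of tags at the same position, 784774, 509715 and 1305672 tags remained in replicates 1, 2 and 3, or 15.5%, 9.37% and 37.6% of those sequenced. Pileup is the number of tags, each extended to the fragment length, stacked over a base. With 1 tag allowed per position and strand it could not pass 154, 250 or 110 tags in the 3 libraries, and it was not scaled between them. Fold is the caller's own ratio of that pileup to the input level expected at the same place. A pileup of 9 tags has an exact Poisson 95% interval of 4.12 to 17.1, and one of 100 tags an interval of 81.4 to 122, which cover counting error only.

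Most X regions belonged to a single list. Of the 266, 183 (68.8%) had a peak in 1 replicate, 41 (15.4%) in exactly 2, and 42 (15.8%, Wilson 95% interval 11.9 to 20.7%) in all 3. Over all nuclear chromosomes the share in all 3 lists was 18% and the share in at least 2 lists was 33.8%, against 83 regions (31.2%) on X. The X shares therefore lay close to those of the series. The single-list regions were not evenly divided, with 86 each in replicates 1 and 2 and 11 in replicate 3. On the autosomes they numbered 379, 491 and 122, so an uneven division was not particular to X. Regions of replicate 3 alone were 4.14% of those on X and 8.08% on the autosomes. Of the X regions in exactly 2 lists, 23 joined replicates 1 and 2, and 9 each joined replicate 3 to one of them. On the autosomes 149 joined replicates 1 and 2, 56 joined 1 and 3, and 36 joined 2 and 3.

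Replicate 3 was the list most fully recovered by the others. A peak of another list overlapped 111 of its 122 X peaks (91%), against 100 of 186 (53.8%) for replicate 1 and 80 of 166 (48.2%) for replicate 2. On the autosomes these shares were 82%, 63.4% and 50%. They count peaks, and the X regions of all 3 lists held 67, 48 and 91 peaks of replicates 1, 2 and 3. A single wide peak of another list can thus overlap several peaks of replicate 3, which raises its share. The count of X regions in all 3 lists depends on how a match is defined. It was 19 at 50% reciprocal overlap and 6 when only peaks over a low input background were kept. With a replicate left out, the other lists were merged anew and presence in both was required. The count was then 52, 66 and 68 without replicates 1, 2 and 3. Merging anew can also divide a region, so these counts do not reflect presence alone.

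Recovery across lists rose with pileup. In replicate 1, 1 of the 57 X peaks below 10 tags lay in a region of all 3 lists, as did 14 of 65 from 10 to below 20 tags, 33 of 45 from 20 to below 40, and all 19 at 40 or more. Replicate 2 gave 0 of 53, 13 of 67, 18 of 29 and 17 of 17 for the same classes. Replicate 3 gave 2 of 15, 13 of 25, 45 of 50 and 31 of 32. Peaks that shared a region were counted separately. On the autosomes the share in all 3 lists also climbed. Below 10 tags it was 9.86%, 5.34% and 29.2% in replicates 1, 2 and 3, against 1.75%, 0% and 13.3% on X. At 40 or more tags it was 119 of 120, 85 of 86 and 127 of 132. The difference between X and the autosomes within a class was not tested. No X peak of 40 or more tags was confined to its own list in any replicate. The median pileup of X peaks in 1 list only was 9, 9 and 8 tags, and that of peaks in regions of all 3 lists was 28, 27.5 and 33. Fold separated these classes less, with medians of 4.50, 4.59 and 3.67 against 5.20, 6.0 and 4.79.

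**Figure D1:**
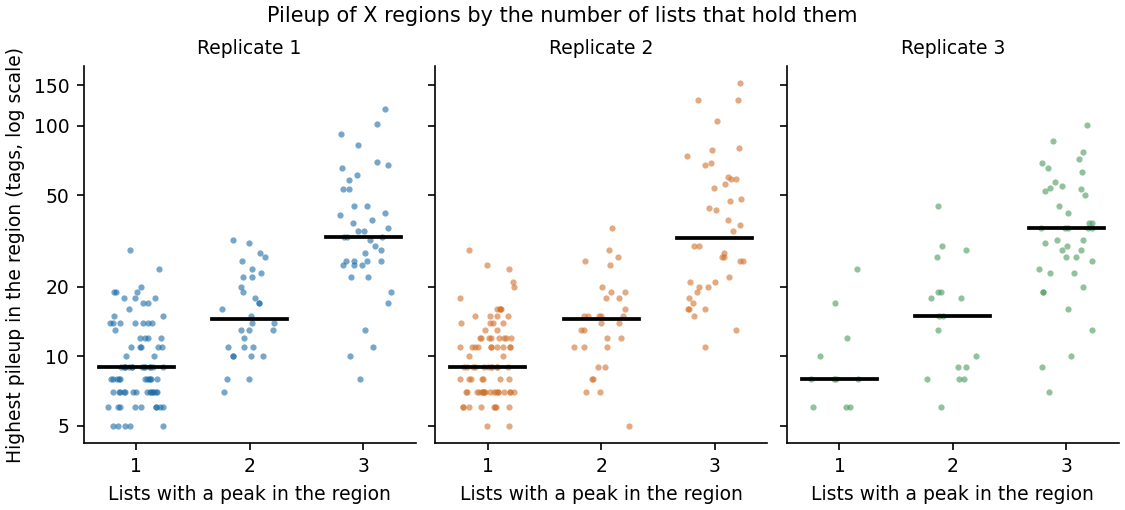
Each point is an X region with a peak in the named replicate, placed by the number of lists that hold it (horizontal axis) and by the highest summit pileup in that replicate (tags, log scale), with bars at the medians. The points climb from left to right in each replicate, and all points above 50 tags belong to regions of all 3 lists.

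The 42 regions of all 3 lists covered a wide range of signal. Their highest summit pileups ran from 8 to 118 tags in replicate 1, from 11 to 153 in replicate 2 and from 7 to 101 in replicate 3, with medians of 33, 32.5 and 36. Folds ran from 2.43 to 21.9, from 2.09 to 40.5 and from 2.90 to 12.7, with medians of 5.97, 6.18 and 5.78. No replicate was highest throughout. Replicate 2 had the highest pileup of the 3 in 18 regions, replicate 3 in 13 and replicate 1 in 9, and the others were ties. Across the 42 regions, Pearson's r of log2 pileup was 0.89 between replicates 1 and 2, 0.93 between 1 and 3 and 0.76 between 2 and 3. These describe regions that share libraries and are not replicates. The SD of the difference in log2 pileup was 0.45, 0.33 and 0.66 for these pairs, so smaller differences between regions lie within the spread of replicates.

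**Figure D2:**
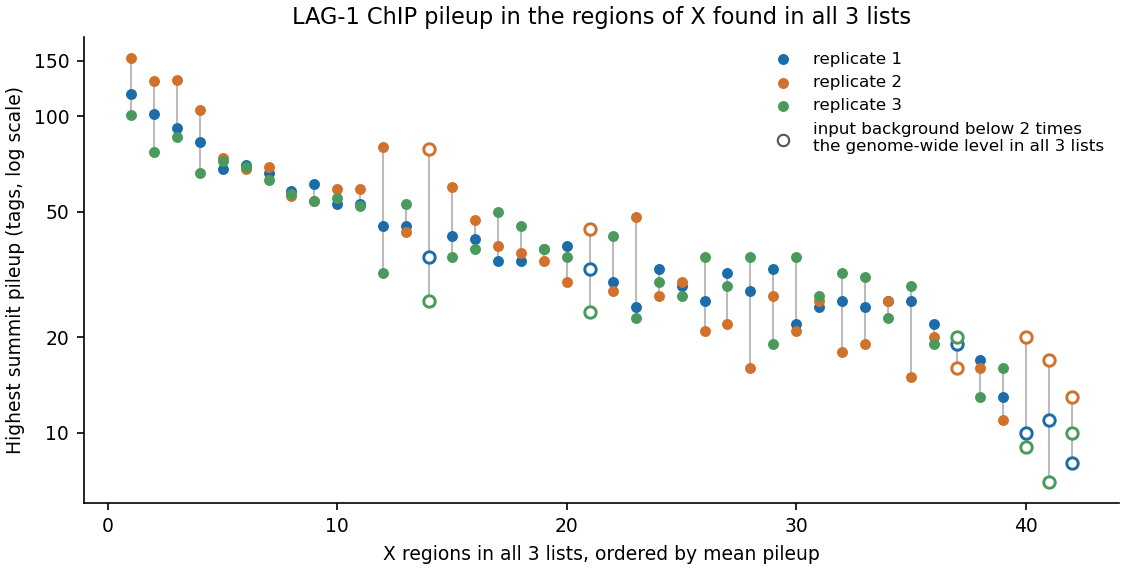
The 42 X regions of all 3 lists are ordered by mean pileup along the horizontal axis, and points give the highest summit pileup of each replicate (tags, log scale), joined by a grey line. Open points mark the 6 regions over a low input background in every list, 5 of which have their highest value in replicate 2.

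The strongest X region by pileup, first in all 3 replicates, ran from 15807396 to 15811206. Its highest pileups were 118, 153 and 101 tags, a mean of 124 ± 26.5 (SD, n = 3). These are 76.6%, 61.2% and 91.8% of the most that each library allows, so the value of replicate 3 in particular is near its limit. The region from 109546 to 114321 had 102, 129 and 77 tags, and the region from 5056208 to 5057277 had 92, 130 and 86. Replicate 2 was highest and replicate 3 lowest in all 3 of these regions. The region from 10361085 to 10362384 had 83, 105 and 66 tags, the same order. The fragment lengths of the libraries, 77, 125 and 55 bp, also followed it, and their part was not tested.

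The next 6 regions were those with the best of the lowest ranks over the 3 lists, a choice that favours regions with like pileups in the replicates. The region from 11785628 to 11787938 had 68, 74 and 72 tags, that from 14908091 to 14908678 had 66, 69 and 63, and that from 291561 to 295287 had 70, 68 and 69. In the region from 1752238 to 1755106 the pileups were 53, 59 and 55 tags, and in that from 11886355 to 11888206 they were 53, 59 and 52. The tenth, from 11788064 to 11789485, had 58, 56 and 57 and lay 125 bp beyond the one ending at 11787938. The SD over the 3 replicates was between 1.0 and 3.79 tags in these 6 regions. Over the 4 leading ones it was between 19.6 and 26.5 tags, but the choice of the 6 bears on that contrast. It passed over regions that were high in 1 replicate, such as those from 9 to 333 with 45, 80 and 32 tags and from 14790280 to 14790891 with 36, 79 and 26. In every list, the input background of all 10 was 5 or more times the genome-wide level.

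The input background is the local tag level of the control, given here as a multiple of the level that an even spread of tags over the genome would give. Of the 42 regions, 33 (78.6%) had a background of at least 2 times that level in every list, 3 (7.14%) were mixed and 6 (14.3%) were below it in every list. Over all nuclear chromosomes 18.2% of the regions in all 3 lists were below it in every list. On the autosomes 183 of 277 (66.1%) were at or above it in every list and 42 (15.2%) were mixed. The higher background was thus the more common state there too. Among called peaks the input background and the pileup are tied by construction, since a peak over a higher background needs more tags to pass the caller's limits. In X peaks of 1 list only the median input background was 1.49, 1.41 and 1.25 times that level, and in peaks of regions of all 3 lists 7.45, 6.09 and 8.41 times. On the autosomes these medians were 1.26, 1.41 and 1.30 times against 7.11, 5.65 and 7.52 times. The part of the input background in the recovery of X regions across lists was not tested.

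The 6 regions over a low background, singled out after their values were seen, differed strongly in height. The region from 14790280 to 14790891 had pileups of 36, 79 and 26 tags, with folds of 21.9, 40 and 12.5, a mean of 24.8 ± 14 (SD, n = 3). Poisson 95% intervals of these pileups were 25.2 to 49.8, 62.5 to 98.5 and 17.0 to 38.1 tags, and that of replicate 2 overlapped neither other. They cover counting error only. Pileup was not scaled between the libraries, whose fragment lengths of 77, 125 and 55 bp followed the same order. The part of fragment length in that order was not tested. The region from 13104770 to 13105195 had 33, 44 and 24 tags and a mean fold of 16.1 ± 3.31 (SD, n = 3). Only these 2 of the 6 exceeded 20 tags in every replicate.

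The other 4 were low. The region from 3334099 to 3334588 had 10, 20 and 9 tags, the region from 5119253 to 5119531 had 8, 13 and 10, and the region from 15687763 to 15688417 had 11, 17 and 7. Their Poisson intervals overlapped between the replicates. The last, from 16929954 to 16931846, was unlike the rest in shape. It was 1893 bp wide and held 6, 5 and 13 summits, with 19, 16 and 20 tags at the highest of them. Its folds of 9.28, 9.01 and 9.82 gave a mean of 9.37 ± 0.414 (SD, n = 3), and it was the one region of the 6 where replicate 2 was lowest.

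The 3 replicates placed the leading summit, the one of highest fold, at positions that often differed. Over the 42 regions the outermost of the 3 summits lay 16 to 2871 bp apart, with a median distance of 136.5 bp. In 11 regions (26.2%) it was at most 50 bp, against 27.3% over all nuclear chromosomes. By pairs, the median distance was 37.5 bp between replicates 1 and 2, 84.5 bp between 1 and 3 and 89 bp between 2 and 3. Replicates 1 and 2 agreed within 50 bp in 26 of the 42 regions (61.9%), replicates 1 and 3 in 18 (42.9%) and replicates 2 and 3 in 13 (31.0%). On the autosomes the pairs were more alike, at 44.4%, 45.1% and 43.7%, with median distances of 63, 76 and 63 bp. The difference between X and the autosomes in these pairs was not tested.

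The spread of the summits is bounded by the width of a region, so narrow regions have small values by construction. The 12 regions of up to 300 bp had a median spread of 50 bp and a widest spread of 138 bp. In the 14 regions over 1000 bp the median was 670.5 bp. Many of the wide regions held several summits in each list, and a different one could lead in each replicate. When the closest combination of summits was taken, the median spread over the 42 regions was 33.5 bp, and it was at most 50 bp in 32 of them. That choice favours regions with many summits by construction. Its median was 50 bp in regions of up to 300 bp, 40.5 bp in those over 300 and up to 1000 bp and 18 bp in the wider ones, the opposite order. With the summit of highest pileup in place of that of highest fold, the median was 75 bp.

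**Figure D3:**
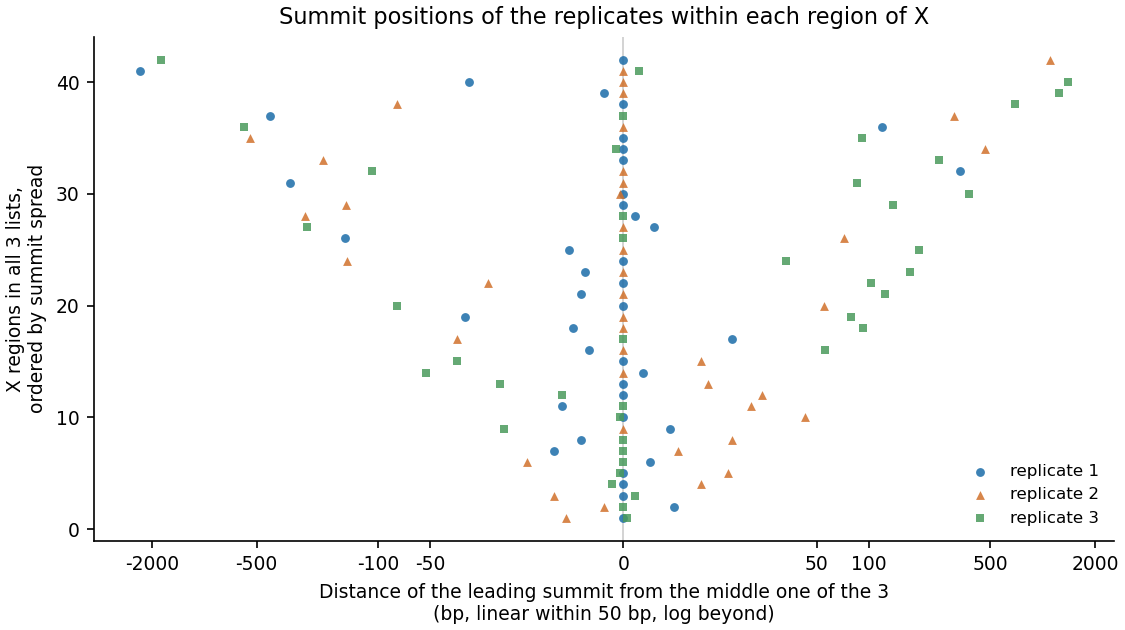
Each row is an X region of all 3 lists, ordered from the smallest summit spread at the bottom, and each point gives the distance of a replicate's leading summit from the middle one of the 3 (bp, linear within 50 bp and log beyond). In the lowest 11 rows the outermost summits lie within 50 bp of each other, and the topmost row spans 2871 bp.

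The closest agreement was in the region from 12277849 to 12278084, with summits at 12277960, 12277945 and 12277961 and pileups of 26, 18 and 32 tags. In the region from 4026797 to 4028045 the summits were at 4027796, 4027778 and 4027783, and in that from 4029834 to 4030043 at 4029927, 4029909 and 4029930. In these 3 regions the summits spread over 16, 18 and 21 bp. The region from 10365794 to 10366068 followed with 23 bp, and the last region of the chromosome, from 17718737 to 17718866, with 28 bp. A spread of 32 bp was found both from 10368264 to 10369112 and from 14790280 to 14790891. The remaining 3 of the first 10 were those from 12276035 to 12276242 with 39 bp, from 9 to 333 with 43 bp and from 13795397 to 13795641 with 48 bp. Apart from the first and last X regions and the region at 14790280, the mean fold of these 10 regions was at most 5.84. Close summits were therefore not limited to high enrichment.

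The regions of all 3 lists were wide beside the others. Their median width was 620.5 bp, against 255 bp for X regions of exactly 2 lists and 127 bp for those of 1 list. On the autosomes these medians were 480, 225 and 125 bp, so the order was not particular to X. The width of a merged region can grow with the number of lists joined. The widest X region, from 109546 to 114321, spanned 4776 bp and was 1 peak in each list, with 25, 12 and 34 summits. The region from 15807396 to 15811206 spanned 3811 bp and was split into 2, 1 and 6 peaks. The region from 291561 to 295287 spanned 3727 bp, that from 1752238 to 1755106 spanned 2869 bp and that from 11785628 to 11787938 spanned 2311 bp. In the first of these the summits lay within 63 bp, and in the others they spread over 2338 and 1436 bp. Replicate 2, with the longest fragment length of 125 bp, held each of these 5 as a single peak.

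The first and the last X regions bound the covered extent, which ends at the last peak by definition. The first, from 9 to 333, had 45, 80 and 32 tags, and the last had 42, 60 and 36. Replicate 2 was highest and replicate 3 lowest at both ends, again the order of the fragment lengths. Both had mixed input backgrounds, with multiples of 4.47, 1.41 and 2.51 on the left and of 1.49, 2.83 and 2.51 on the right.

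The gaps between neighbours among the 266 regions had a median of 24252 bp, and 111 of the 265 gaps (41.9%) were at most 10 kb. On the autosomes the median was shorter, at 17776 bp, and the share was close to that of X, at 44.5%. Between regions of all 3 lists the median gap was 121074 bp, against 60407 bp on the autosomes. These gaps fell into a short and a long class on X, with 13 of 41 (31.7%) at most 10 kb and 10 of these at most 1 kb. On the autosomes 122 of 272 such gaps (44.9%) were at most 10 kb and 96 of these at most 1 kb, so a short class was not particular to X. The difference between X and the autosomes in spacing was not tested. The widest stretch without a region of all 3 lists ran from 7079195 to 9184946, a gap of 2105750 bp. The widest without a peak of any list ran from 6110580 to 6826330, a gap of 715749 bp.

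**Figure D4:**
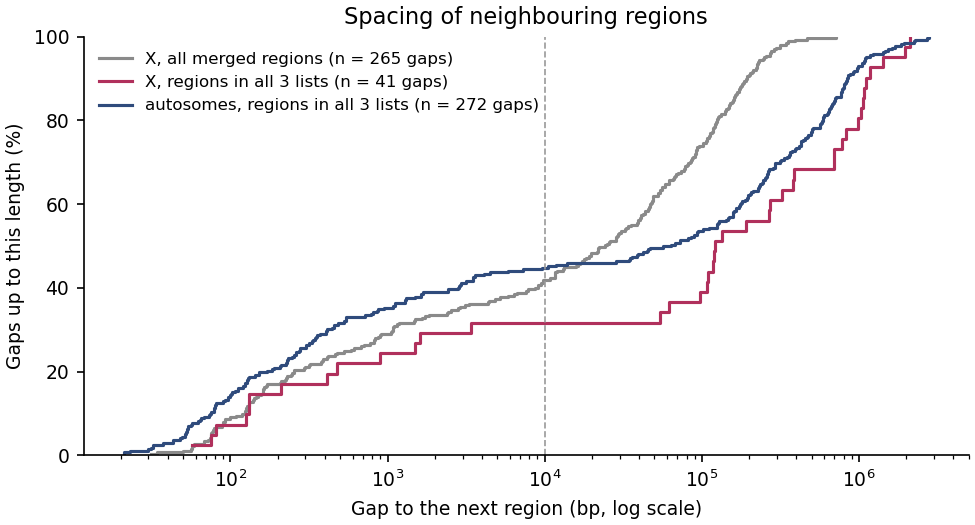
Lines give the percentage of gaps between neighbouring regions (vertical axis) up to each length (bp, log scale) for all X regions, for X regions of all 3 lists and for autosomal regions of all 3 lists, and the dashed line marks 10 kb. The line for X regions of all 3 lists is flat around 10 kb, where 31.7% of its gaps lie below, and its median is 121074 bp.

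Runs of at least 3 regions of all 3 lists with gaps of at most 10 kb numbered 3 on X and held 11 of the 42 regions (26.2%). Over all nuclear chromosomes 42.6% of such regions lay in runs. The run from 4026029 to 4030043 held 4 of them, with 8, 5 and 11 peaks that covered 69%, 44.9% and 43.9% of its length. The run from 9184946 to 9188692 held 3, with 5, 3 and 9 peaks that covered 76.8%, 81.9% and 42.2%. The run from 10361085 to 10369112 held 4, with 17, 11 and 9 peaks that covered 33.7%, 49.9% and 14.5%. Folds inside the runs were moderate, with median values between 3.44 and 5.71 in every list. Input backgrounds were high there, with medians from 5.50 to 8.94 times the genome-wide level. The number in runs was 12, 33 and 20 without replicates 1, 2 and 3, with the other lists merged anew and presence in both required.

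Counting regions of any list, 104 of the 266 lay in 19 such runs. The same share over all nuclear chromosomes was not computed, so these runs cannot be called particular to X. The longest by number of regions extended the run at 4026029 to 4056334 and held 23 regions in 30306 bp, of which 14 were in 1 list, 5 in 2 lists and 4 in all 3. The run from 10361085 to 10369112 held 13 regions, that from 17442264 to 17447584 held 8 and that from 1636209 to 1644661 held 7. The last 2 of these each had a single region of all 3 lists.

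Along the chromosome, peaks were densest from 4 to 5 Mb, with 25, 17 and 15 in replicates 1, 2 and 3. The stretch from 10 to 11 Mb had 23, 16 and 9, and that from 1 to 2 Mb had 20, 10 and 13. Most peaks of the stretches from 4 to 5 Mb and from 10 to 11 Mb lay in a single run each. The run from 4026029 to 4056334 held 20, 11 and 12 peaks, and that from 10361085 to 10369112 held 17, 11 and 9. From 8 to 9 Mb there were 1, 3 and 0 peaks, and none of the regions there was in all 3 lists. The stretch from 2 to 3 Mb also had no region of all 3 lists, although it held 11, 9 and 3 peaks. Across the 18 stretches of 1 Mb, Pearson's r of the number of peaks was 0.78 between replicates 1 and 2, 0.82 between 1 and 3 and 0.64 between 2 and 3. These are descriptions of stretches called against the same input library. With X divided into 3 equal parts, the left part held 41.3% ± 4.09 of the peaks of a list, the middle part 27.8% ± 1.26 and the right part 30.9% ± 3.51 (SD, n = 3). The left part held the most in every replicate, with the run at 4026029 included.

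Among X regions of 1 list only, the highest pileups lay 224 to 3708 bp from a peak of another list. In replicate 1 they were the regions from 1638044 to 1638242 with 29 tags and from 4029036 to 4029180 with 24, at 888 and 228 bp. In replicate 2 they were those from 14387169 to 14387772 with 29 tags and from 14388831 to 14388956 with 25, at 2046 and 3708 bp. In replicate 3 they were those from 12277343 to 12277431 with 24 tags and from 17445886 to 17445989 with 17, at 454 and 224 bp. The input background of all 6 was high, at 5 or more times the level of an even spread. Low background was the more common state of single-list regions, at 122 of 183 (66.7%) on X and 74.8% on the autosomes.

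X had fewer peaks per Mb than the pooled autosomes in every list, but it was the lowest chromosome in replicate 2 alone. The density was 10.5, 9.37 and 6.89 peaks per Mb on X and 12.6, 11.9 and 8.21 on the autosomes in replicates 1, 2 and 3, a ratio of 0.821 ± 0.0294 (SD, n = 3). Chromosome II was lower than X in replicates 1 and 3, with 9.94 and 5.79 peaks per Mb. The share of the extent covered by peaks differed less in replicates 1 and 3. It was 0.296%, 0.372% and 0.186% on X and 0.296%, 0.423% and 0.185% on the autosomes. X peaks had a higher median pileup than the pooled autosomal peaks in every list, at 14, 13 and 27 tags against 13, 12 and 21, a ratio of 1.15 ± 0.119 (SD, n = 3). Single autosomes exceeded X in replicate 1, with 17 tags on chromosome V and 16.5 on I, and in replicate 2, with 14 on I. Their median width was 132.5, 203 and 126.5 bp against 132, 193 and 122 bp. Median fold did not keep a direction, with ratios of 0.963, 0.995 and 1.02.

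The input background under the summits was also higher on X than on the pooled autosomes in every list. On X its median multiple was 4.47, 2.65 and 7.17, and on the autosomes 2.98, 2.01 and 5.51, a ratio of 1.37 ± 0.112 (SD, n = 3). Chromosome I was above X in replicate 1, with 4.87, and chromosomes I, III and V were in replicate 2, each with 2.83. In replicate 3 X was highest. Each multiple can rest on few input tags, and the counting error of these medians was not estimated. In the exact two-sided sign-flip permutation test over the 3 replicates, p was 0.25 for density, pileup, width and background. That is the smallest p the test can give with 3 replicates. It was 0.75 for fold, and adjusted over the 5 ratios these became 0.3125 and 0.75, so none passed. As a geometric mean over the 3 lists, the pileup ratio was 1.14 and turned to 0.962 without the peaks over a higher background.

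The ratio of densities was lower in every list among peaks over a low background than among the others. The low-background peaks numbered 73, 80 and 22 on X, or 4.12, 4.51 and 1.24 per Mb, against 5.72, 5.95 and 2.56 per Mb on the autosomes. The ratios were 0.72, 0.758 and 0.485, a mean of 0.654 ± 0.148 (SD, n = 3), and 0.916 ± 0.0931 for the peaks over a higher background. The difference between both ratios was not tested, and the background class of a peak can turn on few input tags. X was not outside the range of the autosomes in this measure in replicates 1 and 2, where chromosome I had 3.78 and 4.51 per Mb. In replicate 3 chromosome I had 1.53 per Mb and X was lowest. As a geometric mean over the 3 lists, the ratio for peaks over a low background was 0.642. It was 0.783 with neighbouring peaks within 10 kb counted once.

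**Figure D5:**
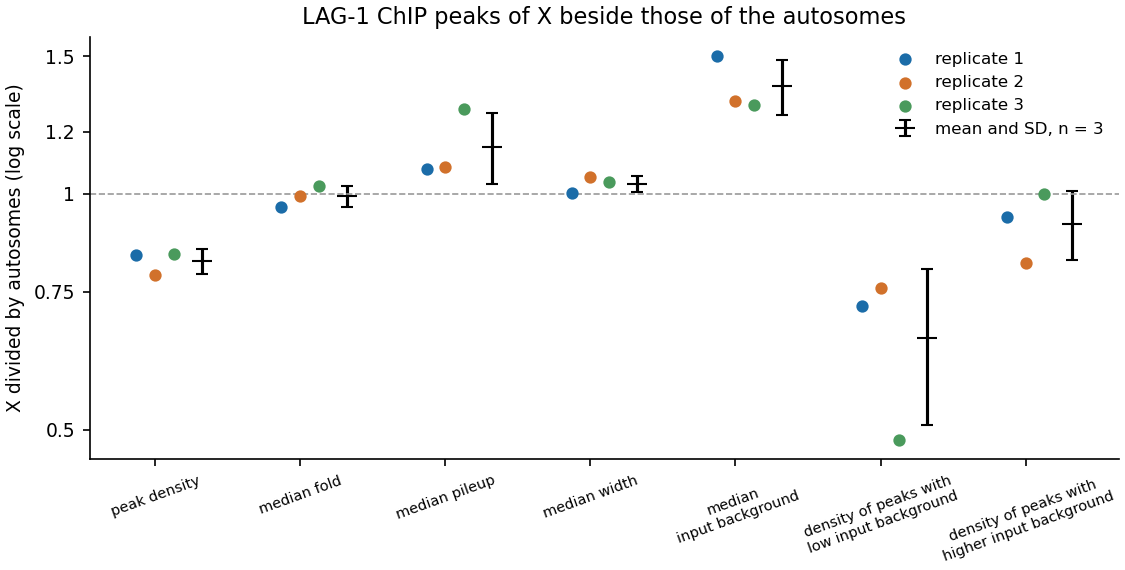
Points give the value on X divided by that on the autosomes for each replicate (log scale, with the dashed line at 1) for 7 measures of the peaks, and bars give the mean and SD of the 3 replicates. Peak density lies below 1 in every replicate, median pileup, width and input background lie above 1, and the density of peaks over a low input background has a mean of 0.654.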

How the data were processed

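The authors ran MACS version 2.1.1.20160309 separately on each ChIP replicate, per the file headers, with the same input as control, tags of 50 bp, at most 1 tag per position and strand and the larger library sampled down. The series text gives limits of fold above 2 and FDR below 0.05. The build is ce10, per the submitters' processing notes; for the aligner, the sources used here name nothing. The deposited pileup is an unscaled signal. The deposited fold is a ratio to the local input background. The deposited −log10 p-values and q-values are per summit.

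A peak was 1 interval, represented by its summit of highest fold, while the pileup of a region is the highest in it. Input background was recovered as pileup plus a pseudocount of 1, over fold, minus 1, and divided by kept tags times fragment length over the effective genome size. Deposited p-values were rebuilt from it within 0.05 for 100%, 99.9% and 100% of summits in replicates 1, 2 and 3. The extent of a chromosome ended at its last peak. X was set beside the autosomes by an exact sign-flip permutation test over replicates, adjusted by Benjamini-Hochberg.

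Named regions of all 3 lists were the 10 placed first by their worst pileup rank, the 10 closest in summit, the 5 widest, the first, the last and every run, together with the 2 highest of each list alone. Members, lists and tests were chosen with earlier results of these data known. The alternatives were stricter matches and thresholds, equal lists, a background limit and left-out replicates. Merging, summit spread and runs were tested on simulated data. Analyses used Python 3.11.15, pandas 2.3.3, numpy 2.4.6 and scipy 1.17.1.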

Additional observations from a re-analysis of the deposited data

How the results depend on the processing

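Of 106 values under other settings, 73 kept their direction or stayed within the limits set, which for counts was 1.5 times. At 50% reciprocal overlap, 19 X regions were in all 3 lists (4.80% of those merged), with a median summit spread of 58 bp, 4 in runs and 28.7% of X peaks overlapped by another list. At 100 bp of overlap the share in all 3 lists was 10.1%. The median spread was 183 bp at fold of at least 3, 188 bp at FDR below 0.001 and 209 bp with lists of equal length, with 7 regions in runs in each. Keeping only background below 2 times the genome-wide level left 145 merged X regions, 6 in all 3 lists (4.14%), a spread of 94.5 bp, 0 in runs, 35.3% overlapped and a pileup ratio of 0.962. The spread was 75 bp with summits of highest pileup and 33.5 bp with the closest summits. With 1 replicate left out and the others merged anew, 52 to 68 regions (26.4% to 32.2%) were in both others. Of these, 12 to 33 lay in runs. The spread was 37.5 to 89 bp, in part by construction, since 2 summits spread less than 3. The fold ratio of X to autosomes turned to 1.01 with lists of equal length and lay between 0.979 and 1.01 with a replicate left out. The cause of the other changes was not tested. The ratios of X to autosomes in this section are geometric means over the lists. By this measure the density ratio was 0.82 as reported and 0.879 with neighbouring peaks counted once. It stayed below 1 in every setting run. The setting that counted neighbours once among peaks over a low background was chosen after seeing the data. Density uses no overlap, and chromosome lengths and the LAG-1 motif were not run, since no genome of this build was used. Depth limits the low pileups most. No paired analysis was possible because the ChIP samples form 1 group, so no sample of another group could be paired with them. X and the autosomes were compared within each library.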

Other observations

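X regions over a low input background and in at least 2 lists numbered 19, of which 13 were in exactly 2. These 13 were 31.7% of the X regions in exactly 2 lists, against 29.5% on the autosomes. The other 6 were 14.3% of the X regions in all 3 lists, against 18.8% on the autosomes. Such regions were therefore not particular to X. The 19 lay far apart, with a median gap of 750480 bp, except for 4 consecutive regions within 67.6 kb between 15674241 and 15741846. No other X region lay between these 4. The first, from 15674241 to 15674449, had 8 and 11 tags in replicates 1 and 2, at summits 22 bp apart. The second, from 15687763 to 15688417, was the one in all 3 lists. The third, from 15707565 to 15707840, had 9 and 8 tags in replicates 2 and 3, and the last, from 15741533 to 15741846, had 15 and 9. The group was picked after its values were seen, its pileups are low and its background class can turn on few input tags. Whether such a group arises by chance was not tested.

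The region from 6826330 to 6827449 was wide for this class, at 1120 bp, and had 15 and 8 tags in replicates 2 and 3 at summits 618 bp apart. In the region from 7149207 to 7149493 the summits of replicates 1 and 2 lay 6 bp apart, with 10 and 12 tags. The region from 11136916 to 11137251 had 12 and 15 tags in the same replicates, with folds of 6.58 and 8.0.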
